A study of Homo sapiens with 24 samples.

Results

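Elongation factors and a set of other growth-regulated mRNAs were followed as 10 genes in K562, an established line of human myelogenous leukaemia cells. CRISPR interference had been directed at the RNA helicase gene DDX3X. The genes were EEF1A1, EEF1B2, EEF1D, EEF1G, EEF2, PABPC1, TPT1, HNRNPA1, NACA and BTF3, chosen by name as genes outside the ribosome whose mRNAs are known or listed as carrying a terminal oligopyrimidine (TOP) start. They are 10 of the 57992 genes used in each count table. The cells carried either the guide sgDDX3 or the control guide sgGal4, and the labels of every sample, day 0 included, give doxycycline at 50 ng/ml, which turns on the repressor. Samples date from day 0, day 3 and day 14 of the knockdown. They give no time at which it was added. For each guide and day there were 2 libraries of ribosome footprints and 2 of cytosolic RNA, 24 libraries in all. The labels state neither that the replicates were separate cultures nor that the cells were 1 clone, so a p-value here speaks only of the spread among these libraries, and that spread may be technical.

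Elongation is the part of translation in which the ribosome reads codons. The eEF1A protein (EEF1A1) is a GTPase that brings aminoacyl-tRNA to the ribosome, the eEF1B proteins (EEF1B2, EEF1D and the structural subunit EEF1G) recharge it with GTP, and eEF2 (EEF2) is the GTPase that moves the ribosome along the mRNA. TOP mRNAs begin with a cytosine followed by a run of pyrimidines at the cap. The kinase mTOR keeps them in translation when cells grow, and the protein LARP1 binds the cap and the tract and holds the mRNAs in an untranslated, stable form when mTOR is off. Besides the elongation factors the genes cover PABPC1, the cytoplasmic poly(A)-binding protein, TPT1, the translationally controlled tumour protein, HNRNPA1, an RNA-binding protein of splicing, and NACA and BTF3, the alpha and beta subunits of the nascent polypeptide-associated complex at the ribosome exit.

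The first 20 bases from the annotated start show the feature that the genes were grouped by. They come from RefSeq on GRCh38.p14, in the direction of transcription, and capitals mark the unbroken run of C and T from the first base where it begins with C and is at least 5 bases long.
EEF1A1: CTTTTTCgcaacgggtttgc
EEF1B2: CCTTTTTCCTCTCTTCagcg
EEF1G: actttgcggcagcgccgaga
EEF2: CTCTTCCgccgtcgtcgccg
TPT1: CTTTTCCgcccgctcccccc
NACA: CTTTCTgccgccatcttggt
BTF3: CCCTTTagctgccatcttgc
They lie at chr6:73521013-73521032 on the minus strand (EEF1A1), chr2:206159895-206159914 on the plus strand (EEF1B2), chr11:62573872-62573891 on the minus strand (EEF1G), chr19:3985444-3985463 on the minus strand (EEF2), chr13:45341164-45341183 on the minus strand (TPT1), chr12:56725280-56725299 on the minus strand (NACA) and chr5:73498442-73498461 on the plus strand (BTF3). EEF1B2 has another annotated start, at position 206159609, with no such tract. The longest tract was that of EEF1B2, at 16 bases, against 7 bases in EEF1A1, EEF2 and TPT1 and 6 bases in NACA and BTF3. Of the 7 genes for which a start was looked up and shown, 6 had a tract of this kind (85.7%), against 1404 of 27305 genes with a start in the table (5.14%). Among genes with a mean of at least 100 RNA-seq counts it was 675 of 8502 (7.94%). The share was 28 of 38 among proteins of the large ribosomal subunit (73.7%), and 1 of 23 among further elongation and termination factors (4.35%). For a tract beginning within 5 bases on either side of the start, the shares were 85.7% of the 7 genes and 25.2% of all genes. The genes were listed for this feature, so their share only describes the list. The annotated start of EEF1G begins with A, and its pyrimidines start at the second base. HNRNPA1, EEF1D and PABPC1 are named only.

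Depth was between 10266619 and 43256563 counts per RNA library and between 6223963 and 15240512 per footprint library. DDX3X RNA was at 38.9 and 33.7 CPM (counts per 1000000 of the library, scaled by TMM factors) in the sgDDX3 cells at day 3, against 185 and 174 CPM in the sgGal4 cells. At day 14 it was at 134 and 101 CPM with sgDDX3 and 201 and 187 CPM with sgGal4, and the difference between the guides was smaller at day 14 than at day 3 (1.57 ± 0.14 on the log2 scale, adjusted p = 7.16e-06). The erythroid factor GATA1, expressed in K562 cells, stood at 163 to 193 CPM over the 12 RNA libraries, and HBG2 at 24.2 to 43.6 CPM, while HBG1 was between 0 and 0.289 CPM. The B cell marker MS4A1 and the fibroblast marker COL1A2 were at 0 in all of them.

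The counts of the 10 genes differed widely in how much of them can be tied to the gene. EEF1G had 1 RNA count in the 12 RNA libraries together and 0 footprint counts, so it could not be measured, and 9 of the 10 genes passed the filter on low counts. Its 8 pseudogene entries held 182 RNA counts and 6140 footprint counts. EEF1A1 has 49 pseudogene entries, and these held 45.5% of the RNA counts of the gene and its copies together, and 73.6% of the footprint counts. For HNRNPA1, with 74 entries, the shares were 22.1% of RNA counts and 57.5% of footprint counts. They were 13.4% and 42.5% for EEF1B2, 3.41% and 45.1% for EEF1D, 1.62% and 38.3% for TPT1, and 0.877% and 32.7% for BTF3. PABPC1 (0.192% and 11.5%) and NACA (0.00476% and 4.47%) were little affected, and EEF2 has no pseudogene entry. How reads that match several places were counted is not given in the sources used here, so the values of EEF1A1, HNRNPA1, EEF1B2, EEF1D, TPT1 and BTF3 are uncertain, above all in footprints.

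The genes took 1.93% and 2.09% of the RNA counts in the sgDDX3 cells at day 14, against 2.15% and 2.16% in the sgGal4 cells at that day. Their share was 2.43% and 2.26% with sgDDX3 and 2.26% and 2.22% with sgGal4 at day 3. In footprints the share was 0.488% and 0.425% with sgDDX3 and 0.43% and 0.414% with sgGal4 at day 14. At day 0 it was 0.358% and 0.381% with sgDDX3, against 0.373% and 0.392% with sgGal4. In bulk samples such as these, fewer cells of a type and less RNA per cell cannot be told apart.

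**Figure D1:**
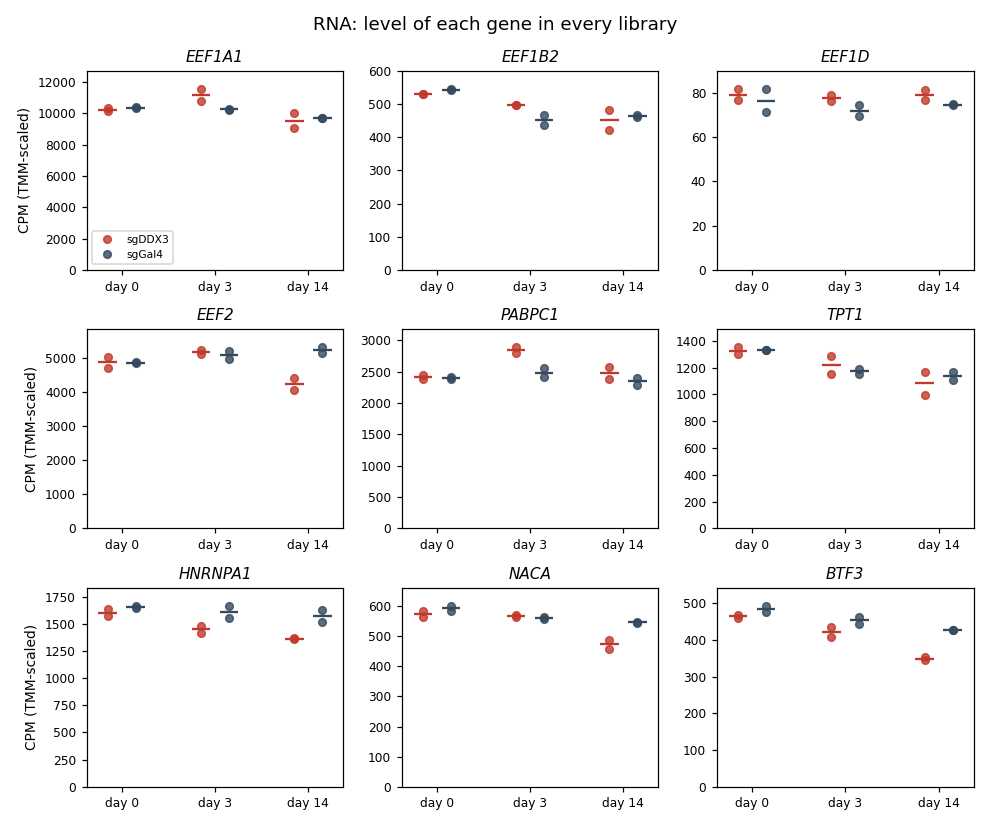
RNA level of each gene in CPM (TMM-scaled counts per 1000000) at day 0, day 3 and day 14, with 1 point per library (2 per group), a bar at the group mean, sgDDX3 left and sgGal4 right. At day 14 both sgDDX3 libraries lie below both sgGal4 libraries for EEF2, HNRNPA1, NACA and BTF3, and above them for EEF1D. At day 3 both lie above them for PABPC1, EEF1A1, EEF1B2 and EEF1D, and below them for HNRNPA1 and BTF3. At day 0 both lie below them for EEF1A1, EEF1B2, HNRNPA1, NACA and BTF3. The share of all genes so separated was not counted.

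At the RNA level 1 of the 9 measured genes passed between the guides at day 3 and 4 passed at day 14. Differences are given as log2 of sgDDX3 over sgGal4, each with a standard error (SE), from the quasi-likelihood F-test of edgeR over all 12 RNA libraries, and a gene passed at a Benjamini-Hochberg adjusted p of 0.05 over all genes tested. At day 0 none of the 9 passed, where 0.00547% of all genes did, and their log2 differences ran from -0.06 to 0.05. At day 0 the count was also 0 of 9 at an unadjusted p under 0.05 and 0 by DESeq2. At day 3, 14.1% of all genes passed in either direction, and at day 14, 14.6%. The 4 genes at day 14 were all lower with sgDDX3, as were 6.18% of all genes tested. The median of the 9 log2 differences was 0.06 at day 3, against -0.01 over all genes, and -0.07 at day 14, against -0.01 over all genes. Whether the libraries of the guides overlap is given below as a description only, since the share of all genes without overlap was not counted. At day 0, where none of the 9 passed, both sgDDX3 libraries lay below both sgGal4 libraries for EEF1A1, EEF1B2, HNRNPA1, NACA and BTF3.

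EEF2 had the most negative RNA difference of the 9 at day 14. Its RNA was at 4053 and 4397 CPM in sgDDX3 cells, against 5126 and 5304 CPM in sgGal4 cells. Both sgDDX3 libraries were the lower ones, and the groups did not overlap. The log2 difference was -0.30 ± 0.06 (SE, adjusted p = 0.000969), 81.0% of the level in sgGal4 cells. At day 3 EEF2 RNA was at 5233 and 5097 CPM with sgDDX3 and 5201 and 4957 CPM with sgGal4, and at day 0 it was at 5031 and 4702 CPM with sgDDX3 and 4835 and 4882 CPM with sgGal4. The groups overlapped at both of these days. The difference at day 14 minus that at day 3 was -0.33 ± 0.08 on the log2 scale and missed the threshold (adjusted p = 0.128). In that test 0 of the 9 genes passed, as did 0.164% of all genes, with 2 at an unadjusted p under 0.05 (EEF2 and NACA) and 0 by DESeq2. Without replicate 2 of the sgDDX3 RNA libraries of day 14, EEF2 (-0.39, adjusted p = 0.00153) and EEF1A1 (-0.23, adjusted p = 0.0466) passed.

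The paired subunits of the nascent polypeptide-associated complex were both lower in RNA at day 14. BTF3 was at 345 and 353 CPM in sgDDX3 cells, against 426 and 427 CPM in sgGal4 cells, a log2 difference of -0.29 ± 0.06 (SE, adjusted p = 0.00343). NACA was at 457 and 488 CPM with sgDDX3, against 548 and 545 CPM with sgGal4, a difference of -0.21 ± 0.06 (SE, adjusted p = 0.0254). The libraries of the 2 guides did not overlap for either gene. At day 3 NACA was at 569 and 562.4 CPM with sgDDX3 and 562.5 and 558 CPM with sgGal4. BTF3 was then at 434 and 407 CPM with sgDDX3 and 444 and 463 CPM with sgGal4. Neither passed at day 3 (adjusted p = 0.925 for NACA and 0.297 for BTF3), and neither passed in the test of day 14 minus day 3. The calls of EEF2 and BTF3 at day 14 held under all 12 alternatives of the processing, whereas that of NACA was lost in 4 of the 12. These were the fit of the day's libraries alone (-0.21) and those without sgDDX3 replicate 1 (-0.16), without sgGal4 replicate 1 (-0.19) and without sgGal4 replicate 2 (-0.22).

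HNRNPA1 RNA was at 1367 and 1360.5 CPM in sgDDX3 cells at day 14, against 1629 and 1516 CPM in sgGal4 cells. Both sgDDX3 libraries were lower, with a log2 difference of -0.20 ± 0.06 (SE, adjusted p = 0.0265), and with the counts of its pseudogene entries added the difference was also -0.20 (adjusted p = 0.0293). At day 3 it was at 1479.5 and 1417 CPM with sgDDX3, against 1662 and 1548 CPM with sgGal4, which missed the threshold (-0.15 ± 0.06, adjusted p = 0.112). The day 14 call was lost without sgGal4 replicate 1 (-0.14) and in the fit of the day's libraries alone (-0.21).

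PABPC1 was the gene that was higher with sgDDX3 at day 3. Its RNA was at 2886 and 2801 CPM in sgDDX3 cells, against 2549 and 2406 CPM in sgGal4 cells, so that both sgDDX3 libraries were higher. The log2 difference was 0.20 ± 0.06 (SE, adjusted p = 0.0263), among 7.68% of all genes that were higher. The call held in 9 of 12 alternatives. It was lost when either sgDDX3 library was left out (0.18 without replicate 1 and 0.22 without replicate 2), and without sgGal4 replicate 2 (0.16). At day 14 PABPC1 was at 2385 and 2565 CPM with sgDDX3 and 2401 and 2286 CPM with sgGal4, and the groups overlapped.

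The eEF1 genes and TPT1 did not pass in RNA at any day. EEF1A1 was at 11567 and 10817 CPM with sgDDX3 at day 3, against 10199 and 10309 CPM with sgGal4 (log2 0.13 ± 0.06, adjusted p = 0.141). At day 14 it was at 9041 and 10026 CPM with sgDDX3 and 9678 and 9713 CPM with sgGal4, where the sgDDX3 libraries lay on either side of the sgGal4 ones. EEF1B2 was at 497 and 497 CPM with sgDDX3 and 438 and 468 CPM with sgGal4 at day 3 (0.13 ± 0.07, adjusted p = 0.212). EEF1D was at 76.6 and 79.2 CPM with sgDDX3 and 69.7 and 74.4 CPM with sgGal4 at day 3 (0.12 ± 0.08, adjusted p = 0.397). For EEF1A1, EEF1B2 and EEF1D at day 3 both sgDDX3 libraries lay above both sgGal4 libraries, by amounts that did not pass. The share of all genes separated in this way was not counted. TPT1 had 993 and 1169 CPM with sgDDX3 at day 14, against 1108 and 1163 CPM with sgGal4, with overlapping libraries (-0.07 ± 0.07). Without sgDDX3 replicate 2, the higher of its libraries, TPT1 passed at day 14 (-0.20, adjusted p = 0.0328).

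**Figure D2:**
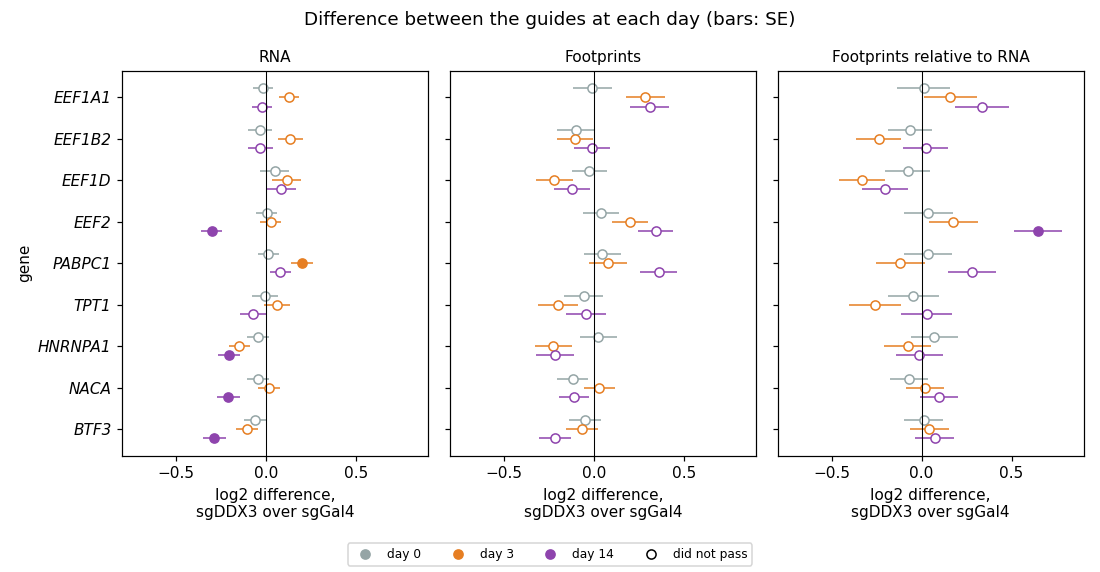
Log2 difference of sgDDX3 over sgGal4 for each gene at day 0, day 3 and day 14, in RNA (left), footprints (middle) and footprints relative to RNA (right), with bars for the SE and filled points for genes that passed at an adjusted p of 0.05. The filled points are PABPC1 in RNA at day 3, EEF2, HNRNPA1, NACA and BTF3 in RNA at day 14, and EEF2 in footprints relative to RNA at day 14.

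In footprints none of the 9 genes passed at day 0, day 3 or day 14 by edgeR, beside 0.0101%, 3.81% and 3.4% of all genes at these days. At an unadjusted p under 0.05 the counts were 0, 2 and 4 of the 9, and by DESeq2 they were 0, 0 and 1, the last being EEF2. EEF2 footprints were at 1356 and 1232 CPM in sgDDX3 cells at day 14, against 1078 and 964 CPM in sgGal4 cells. The 2 groups did not overlap, and the log2 difference was 0.34 ± 0.10 (SE, adjusted p = 0.0799). This passed in 2 of 12 alternatives, by DESeq2 (adjusted p = 0.0302) and without the filter on low counts (adjusted p = 0.0493).

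PABPC1 and EEF1A1 also had positive footprint differences at day 14 that missed the threshold. PABPC1 footprints were at 254 and 235 CPM with sgDDX3, against 194 and 187 CPM with sgGal4 (0.36 ± 0.10, adjusted p = 0.0808). EEF1A1 footprints were at 1405 and 1209 CPM with sgDDX3, against 1041 and 1066 CPM with sgGal4 (0.31 ± 0.11, adjusted p = 0.145), and with the pseudogene counts added the difference was 0.28. At day 3 EEF1A1 footprints were at 1240.1 and 1473 CPM with sgDDX3 and 1103 and 1121 CPM with sgGal4 (0.29 ± 0.11, adjusted p = 0.167). EEF1A1 at both days and PABPC1 at day 14 had both sgDDX3 libraries above both sgGal4 libraries, and neither gene passed. For footprints, too, the share of all genes separated in this way was not counted. At day 3 PABPC1 footprints overlapped, at 150.2 and 185 CPM with sgDDX3 and 152 and 167 CPM with sgGal4. BTF3 footprints were at 367 and 342 CPM with sgDDX3 and 408 and 417 CPM with sgGal4 at day 14 (-0.22 ± 0.09, adjusted p = 0.22), and HNRNPA1 footprints at 514 and 466 CPM with sgDDX3 and 588 and 552 CPM with sgGal4 (-0.22 ± 0.10, adjusted p = 0.305). NACA footprints at day 14 were at 511 and 503 CPM with sgDDX3 and 567 and 528 CPM with sgGal4 (-0.11 ± 0.09, adjusted p = 0.561). BTF3, HNRNPA1 and NACA thus had both sgDDX3 libraries below both sgGal4 libraries.

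**Figure D3:**
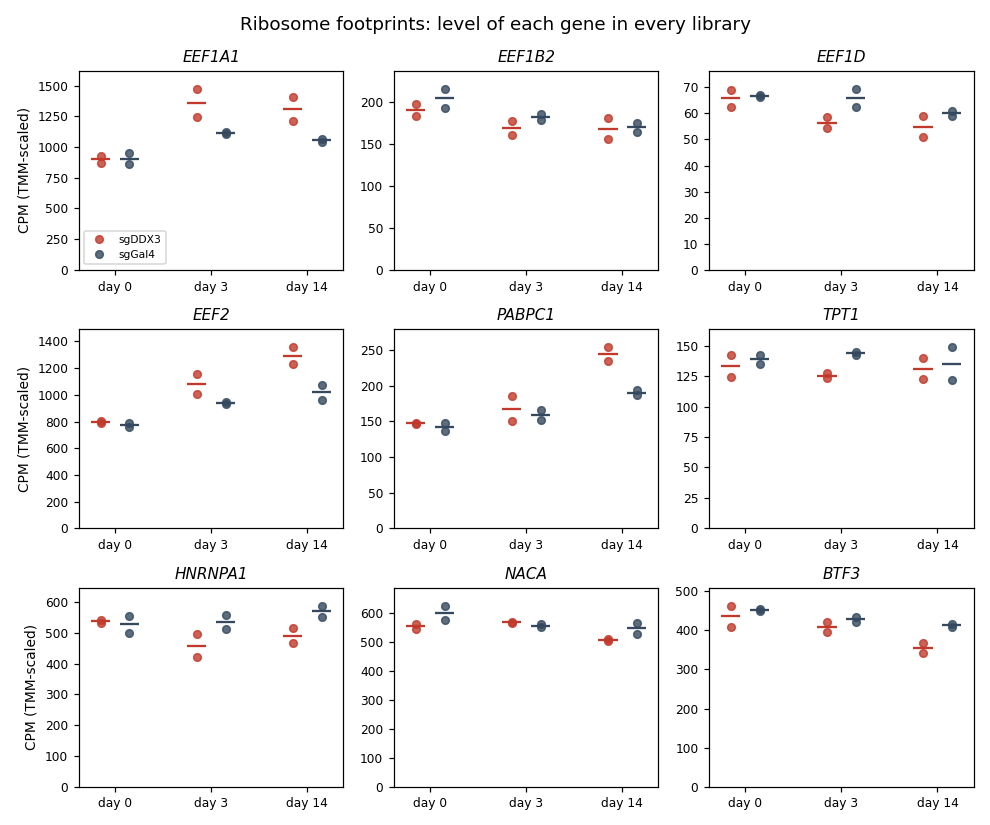
Footprint level of each gene in CPM (TMM-scaled counts per 1000000) at day 0, day 3 and day 14, with 1 point per library (2 per group), a bar at the group mean, sgDDX3 left and sgGal4 right. EEF2, PABPC1 and EEF1A1 have both sgDDX3 libraries above both sgGal4 libraries at day 14, and HNRNPA1, NACA and BTF3 have both below them. None of these genes passed, and the share of all genes so separated was not counted.

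Footprints relative to RNA, here called translational efficiency, were tested by a guide-by-assay interaction fitted to the 24 libraries jointly, and passed for EEF2 at day 14. The log2 difference was 0.65 ± 0.13 (SE, adjusted p = 0.00939), and higher efficiency was called for 0.377% of all genes (1.75% in either direction). The ratio of footprint CPM to RNA CPM, taken from group means, was 0.306 in sgDDX3 cells and 0.196 in sgGal4 cells. It was 0.164 with sgDDX3 and 0.16 with sgGal4 at day 0, and 0.209 with sgDDX3 and 0.185 with sgGal4 at day 3. At day 14 the RNA of EEF2 was lower in sgDDX3 cells, past the threshold, and its footprint values were higher, short of it. The call held in 13 of 16 alternatives. It was lost with the libraries of the day only (0.65), without replicate 2 of the sgGal4 RNA libraries of day 14 (0.62) and without replicate 1 of the sgDDX3 footprint libraries of day 14 (0.57).

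No other gene of the 9 passed in efficiency at day 14, and none at day 0 or day 3, where 0.00673% and 5.14% of all genes did. At these 2 days 0 and 1 of the 9 had an unadjusted p under 0.05, and 0 and 0 passed by DESeq2. EEF1A1 had 0.34 ± 0.15 (adjusted p = 0.351) and PABPC1 0.28 ± 0.13 (adjusted p = 0.402) at day 14, each with 2 sgDDX3 footprint libraries above those of sgGal4. The lowest value was that of EEF1D, -0.33 ± 0.13 at day 3 (adjusted p = 0.161) and -0.21 ± 0.13 at day 14. At day 14, 7 of the 9 log2 values were positive, where 53.4% of all genes were. The difference of the EEF2 efficiency between day 14 and day 3 was 0.47 ± 0.19 (adjusted p = 0.875), so it was not shown to differ between the days. In that test 0 of 14853 genes passed, 2 of the 9 had an unadjusted p under 0.05 (EEF2 and PABPC1), and DESeq2 called 0 of the 9.

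**Figure D4:**
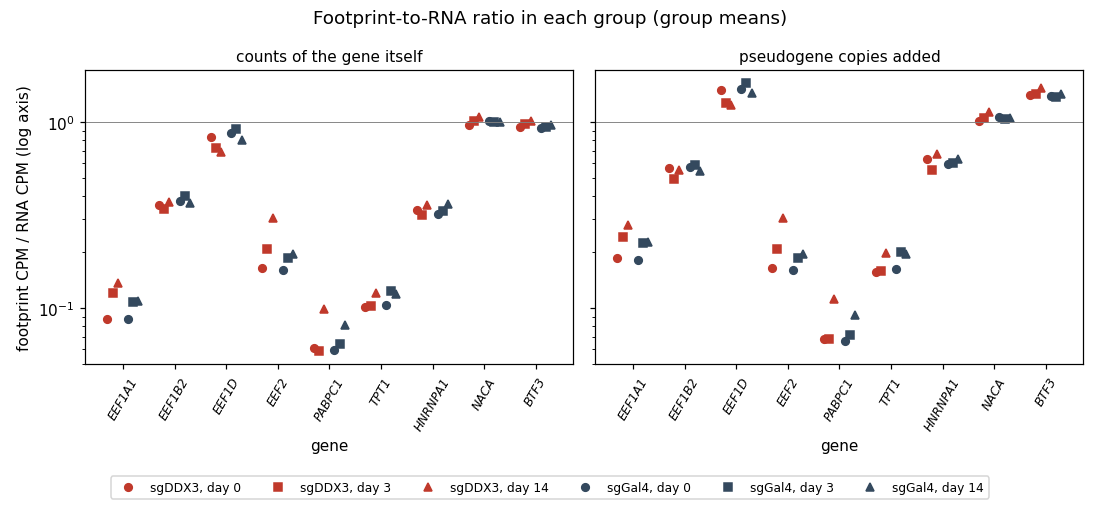
Ratio of footprint CPM to RNA CPM from group means on a log axis, for the gene itself (left) and with its pseudogene entries added (right), with sgDDX3 left of sgGal4 for each gene and circles, squares and triangles for day 0, day 3 and day 14. EEF1A1, EEF2, PABPC1 and TPT1 lie lowest at every day in the left panel, and EEF2 with sgDDX3 at day 14 lies above its other groups.

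The footprint-to-RNA ratio placed the genes far apart from each other in the control cells. In sgGal4 cells at day 0 it was 0.0595 for PABPC1, 0.0872 for EEF1A1, 0.104 for TPT1 and 0.16 for EEF2, while the median of all 14853 genes measured in both assays was 0.811. The share of genes with a lower ratio was 0.417% for PABPC1, 0.821% for EEF1A1, 1.12% for TPT1 and 2.43% for EEF2. HNRNPA1 (0.319) and EEF1B2 (0.375) followed, above 9.59% and 13.7% of genes. EEF1D (0.873), BTF3 (0.933) and NACA (1.02) were near the median of all genes. Low ratios were not particular to this set. The median was 0.319 for the 9 genes, 0.437 for 16 further TOP mRNAs (described below), and 0.471 and 0.452 for large and small ribosomal subunit proteins. The lowest ratios in those other lists were 0.0641, 0.113 and 0.104. Because RNA reads cover a whole transcript and footprints only its coding part, and because pseudogene entries took a larger share of footprint counts than of RNA counts, these ratios order genes only roughly. With the pseudogene entries added the ratio was 0.182 for EEF1A1, 0.162 for TPT1, 0.571 for EEF1B2 and 0.596 for HNRNPA1. It was then 1.51 for EEF1D and 1.38 for BTF3, while NACA was at 1.06 and PABPC1 at 0.0669. EEF2 has no entry to add.

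The control cells were also compared with themselves over the days. These tests use the same sgGal4 libraries as the guide comparisons, so their values stand beside those and do not add support. EEF1B2 RNA in sgGal4 cells was at 543 and 547 CPM at day 0, 438 and 468 CPM at day 3, and 468 and 460.2 CPM at day 14. At day 3 EEF1B2 was the 1 gene of the 9 that passed (-0.27 ± 0.07, adjusted p = 0.0225), where 5.68% of all genes passed and 2.27% were lower. At day 14, 3 of the 9 were lower (16.2% of all genes passed and 8.55% were lower): EEF1B2 (-0.23 ± 0.07, adjusted p = 0.0241), TPT1 (-0.23 ± 0.07, adjusted p = 0.034) and BTF3 (-0.18 ± 0.06, adjusted p = 0.0498). TPT1 RNA was at 1108 and 1163 CPM at day 14, against 1333 and 1332 CPM at day 0, and the groups did not overlap.

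These calls over time in sgGal4 cells rest on few libraries. Leaving out any 1 of the 4 libraries compared ended each of the 3 calls at day 14, with log2 values between -0.25 and -0.22 for EEF1B2, -0.27 and -0.20 for TPT1, and -0.21 and -0.17 for BTF3. The day 3 call of EEF1B2 ended without either day 0 library (-0.28 and -0.26) and without replicate 1 of day 3 (-0.22). With total counts in place of TMM factors the EEF1B2 call at day 3 (-0.23) and the TPT1 (-0.20) and BTF3 (-0.16) calls at day 14 were lost too, and the BTF3 call was lost in 9 of 11 alternatives in all. In sgGal4 footprints 0 of the 9 passed at day 3 and 0 at day 14 by edgeR, where 1.26% and 2.47% of all genes did. The counts were 2 and 3 at an unadjusted p under 0.05, and 0 and 2 by DESeq2. At day 14 PABPC1 and EEF2 also passed without the filter on low counts (adjusted p = 0.017 and 0.0102), and PABPC1 alone in 3 more alternatives. PABPC1 footprints were at 194 and 187 CPM at day 14, against 148 and 136 CPM at day 0 (0.42 ± 0.10, adjusted p = 0.0526), and EEF2 footprints at 1078 and 964 CPM, against 791 and 761 CPM (0.40 ± 0.10, adjusted p = 0.055).

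Other genes of the pathway were listed with earlier results of these data known. Among 16 further TOP mRNAs, 7 were lower and 2 higher in RNA at day 14 with sgDDX3, where 14.6% of all genes passed and 6.18% were lower. The 7 were the initiation factor 3 subunits EIF3E (-0.48 ± 0.11), EIF3F, EIF3H and EIF3L, the nucleolar chaperone NPM1 (-0.33 ± 0.06), the guanine nucleotide synthesis enzyme IMPDH2 (-0.34 ± 0.07) and NOP53, and the higher ones were GAS5, a non-coding host transcript of small nucleolar RNAs with a TOP start, and the poly(A)-binding protein PABPC4 (0.32 ± 0.07). PABPC4 RNA was at 474 and 420.4 CPM with sgDDX3, against 373 and 343 CPM with sgGal4. In efficiency none of the 16 passed at day 14, and all 16 had a positive log2 value, with a median of 0.21 against 0.02 over all genes, where 53.4% of all genes were positive. Their footprint differences at day 14 had a median of -0.03, and 7 of the 16 were positive, where 50.7% of all genes were. In RNA at day 14 the median was -0.19, and 3 of the 16 were positive, where 49.0% of all genes were. At day 3, 9 of the 16 efficiency values were positive (56.7% of all genes), with a median of 0.04 against 0.05 over all genes. For GAS5, which encodes no protein, the ratio need not measure translation. Ribosomal protein mRNAs were also lower in RNA at day 14 with sgDDX3, in 15 of 47 of the large and 7 of 32 of the small subunit. None was higher. Their median log2 RNA differences were -0.16 and -0.14, against -0.07 for the 9 genes and -0.01 over all genes. Ribosomal protein mRNAs had positive efficiency values at day 14 in 29 of 47 of the large and 22 of 32 of the small subunit, where 53.4% of all genes were positive. The medians were 0.05 and 0.04, against 0.02 over all genes, and none passed. Their footprint differences at day 14 were positive in 11 of 47 and 5 of 32, where 50.7% of all genes were, with medians of -0.09 and -0.09. In footprints 3 and 1 of them passed, all lower, where 3.4% of all genes passed in either direction. Of 28 further elongation and termination factors tested, 1 was higher and 2 lower in RNA at day 14, a share not above the 14.6% of all genes that passed. The lower ones were DPH5, an enzyme of diphthamide synthesis on eEF2 (-0.37 ± 0.09), and the GTPase GTPBP2 (-0.32 ± 0.08). GTPBP2 RNA went from 112 and 105 CPM at day 0 to 155 and 158 CPM at day 14 with sgGal4. With sgDDX3 it went from 119 and 113 CPM to 124 and 126 CPM. The higher one was EEF1A2, the eEF1A form of muscle and neurons, at 4.83 and 4.15 CPM with sgDDX3, against 0.768 and 1.57 CPM with sgGal4 (1.76 ± 0.31, adjusted p = 0.000466), a low count whose sequence is close to that of EEF1A1.

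**Figure D5:**
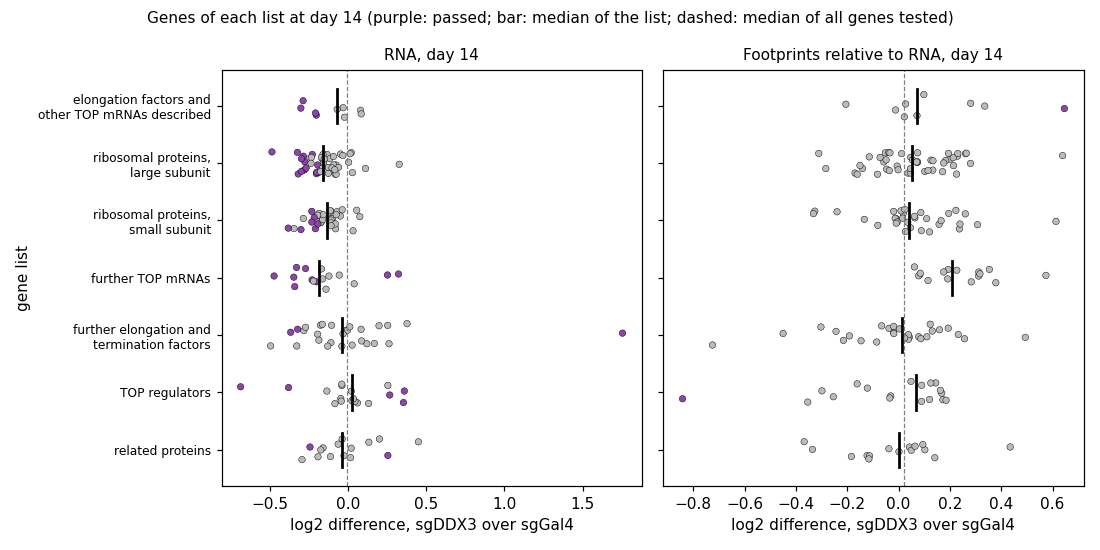
Log2 difference of sgDDX3 over sgGal4 at day 14 for every gene of each list, in RNA (left) and in footprints relative to RNA (right), with 1 point per gene, purple where it passed, a bar at the list median and a dashed line at the median of all genes. All 16 further TOP mRNAs lie above 0 on the right, while 7 of the 16 were positive in footprints alone.

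Of 18 genes that act on TOP mRNAs, 4 were higher and 1 lower in RNA at day 3, and 3 higher and 2 lower at day 14, where 14.1% and 14.6% of all genes passed at these days. MTOR RNA was at 223 and 233 CPM with sgDDX3 at day 3, against 156 and 158 CPM with sgGal4 (0.54 ± 0.07, adjusted p = 1.14e-05), and 0.36 ± 0.07 at day 14. Its footprints at day 3 were at 71.7 and 72.3 CPM with sgDDX3, against 70.1 and 74.3 CPM with sgGal4, and its efficiency was lower at that day (-0.54 ± 0.10, adjusted p = 0.000855). LARP1 was higher at day 3 (0.26 ± 0.07) and day 14 (0.27 ± 0.07), LARP1B at day 3 (0.27 ± 0.09), and EIF4EBP1, an mTOR target that binds eIF4E, was lower at both days, with 124 and 145 CPM with sgDDX3 and 215 and 218 CPM with sgGal4 at day 14. At day 0 EIF4EBP1 RNA was at 159 and 152 CPM with sgDDX3 and 149 and 155 CPM with sgGal4. In these libraries its day 14 values thus lay above those of day 0 with sgGal4 and below them with sgDDX3. The change over days with sgDDX3 was not tested. MLST8, an mTOR complex subunit, was lower at day 14 (-0.38 ± 0.08). EIF4EBP2, another eIF4E-binding protein, was higher in RNA (445 and 416 CPM with sgDDX3, against 321 and 307 CPM with sgGal4 at day 3) and lower in footprints at that day (21.1 and 19.3 CPM with sgDDX3, against 52.1 and 49.4 CPM with sgGal4). Its efficiency difference was -1.79 ± 0.13 at day 3 (adjusted p = 9.21e-10) and -0.84 ± 0.12 at day 14.

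Genes whose pattern over 12 RNA libraries was much like the mean of the 9 included RPL5 (Pearson r = 0.967), RPL14P1 (0.957), RPL34 (0.956) and TOMM70 (0.952), among 1984 genes ranked. Within the set, NACA followed the mean of the others most closely in RNA (r = 0.949), then BTF3 (0.832) and TPT1 (0.826), while PABPC1 (0.0352) and EEF1D (-0.0949) did not. In footprints no gene of the set was above 0.211, and NACA stood at -0.457. The RNA values all rest on the same 12 RNA libraries, and the footprint values on the same 12 footprint libraries. Genes of an assay thus share library depths and scaling, and all these values are a description with no test.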

How the data were processed

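Ribosome footprints and cytosolic RNA of K562 cells were measured in 24 libraries. The values the authors deposited are raw counts of reads per gene, in a table per assay. The submitters' processing notes name GRCh38 and, with no role or order, STAR 2.7.5a, Bowtie2 2.4.1, cutadapt 3.4 and DESeq2. Not given in the sources used here are the counting tool, whether strand was used, and how reads that match several places were treated. From 58037 genes, 45 Y copies of pseudoautosomal genes were left out. Symbols matched 41445 genes (71.5%). R 4.3.3 with edgeR 4.0.16 (TMM scaling within each assay, filterByExpr with a minimum count of 10, quasi-likelihood F-test on the 12 libraries of an assay together, or on all 24 for efficiency, Benjamini-Hochberg at 0.05) gave 18287 genes in RNA, 19780 in footprints and 14853 in both. DESeq2 1.42.0 was an alternative, beside other scalings, other fits, no filter on low counts, pseudogene counts added and each library left out. CPM are per 1000000 counts of a library and n = 2 per group. The common coefficient of variation was 6.13% in RNA and 9.99% in footprints. The tests were tried on simulated counts that gave every gene of an assay the same spread, unlike real data, and no result here rests on that trial. The genes and the lists were chosen with earlier results of these data known. Named genes of the other lists were up to 3 per list with the smallest p among those that passed, and further genes of a list were named where a count was 5 or fewer or from its full set of called genes, after their values were seen.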

Additional observations from a re-analysis of the deposited data

Results flagged for a closer look

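The gene EEF1G had no footprint count of its own in any library, while its 8 pseudogene entries held 6140 footprint counts, of which 4076 lay in EEF1GP5. This is a signal in rows that the main comparisons do not use for EEF1G. In RNA the same entries held 182 counts, against 1 count for the gene. These counts were added to EEF1G only in the alternative with pseudogene counts added, and no difference between the guides for EEF1G is reported from it.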

How the results depend on the processing

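Counts of genes that passed moved by over 1.5 times in these cases. In RNA at day 3 the 1 gene called became 0 in some fits that left out 1 library (0 to 1). In RNA at day 14 the 4 called became 2 with the libraries of the day only, and ranged from 2 to 5 when 1 library was left out. For the difference at day 14 minus day 3 in RNA, 0 became 1 without the filter on low counts and ranged from 0 to 2 without 1 library. In footprints at day 14, 0 became 1 by DESeq2 and 1 without the filter. In sgGal4 footprints at day 14 against day 0, 0 became 2 by DESeq2 and also without the filter, and 1 (PABPC1) with TMM factors from other genes (adjusted p = 0.0481), with the newer edgeR fit (0.0485) and with pseudogene counts added (0.049). For efficiency at day 14 the 1 call became 0 with the libraries of the day only, and ranged from 0 to 1 without 1 library. The cause was not tested.

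Values near 0 that changed sign, none of them called, were those of NACA in RNA at day 3 (-0.006 with total counts), in footprints at day 3 (-0.031 without the filter, -0.037 with total counts) and in efficiency at day 3 (-0.037 without the filter, -0.031 with total counts, -0.006 with TMM factors from other genes, -0.002 with the libraries of the day), BTF3 in efficiency at day 3 (-0.013 without the filter, -0.004 with total counts) and HNRNPA1 in efficiency at day 14 (0.077 with pseudogene counts). In the guide comparisons at day 3 and day 14, leaving out 1 library gave these log2 ranges that cross 0 (single genes at day 0, between days and over time in sgGal4 are not listed): in RNA at day 3, -0.007 to 0.059 for EEF2 and -0.025 to 0.139 for TPT1; in RNA at day 14, -0.111 to 0.05 for EEF1A1, -0.131 to 0.05 for EEF1B2 and -0.204 to 0.044 for TPT1; in footprints at day 3, -0.09 to 0.22 for PABPC1 and -0.0 to 0.026 for NACA; in footprints at day 14, -0.131 to 0.087 for EEF1B2 and -0.173 to 0.093 for TPT1; in efficiency at day 3, -0.289 to 0.022 for PABPC1, -0.21 to 0.035 for HNRNPA1, -0.014 to 0.026 for NACA and -0.012 to 0.092 for BTF3; in efficiency at day 14, -0.098 to 0.121 for EEF1B2, -0.102 to 0.164 for TPT1 and -0.095 to 0.054 for HNRNPA1.

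Whether the replicate numbers pair the libraries was not settled by the check used here, for which no threshold was set. The correlation of replicate 1 minus replicate 2 between the guides was -0.114, 0.174 and 0.303 in RNA at days 0, 3 and 14, and 0.15, 0.133 and -0.0848 in footprints. With the replicate number as a block, 0, 1 and 4 of the genes were called in RNA at these days, as without it, 0 in footprints and 1 in efficiency at day 14. The block ended the call of BTF3 in sgGal4 RNA at day 14 against day 0 (-0.18, adjusted p = 0.066). A crossed pairing at day 0 in RNA, chosen after seeing the data, called 1 gene in all and 0 of the set. The lowest count of a tested gene of the set in 1 library was 323 in footprints and 779 in RNA, both for EEF1D.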
